A study of Mus musculus with 12 samples.

Results

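The transcriptional output of the Hippo pathway rests on a small group of nuclear proteins, and the messages of 7 of their genes were followed here in embryonic mouse brain: Yap1, Wwtr1 (which encodes TAZ), the DNA-binding factor genes Tead1, Tead2, Tead3 and Tead4, and Vgll4, whose product competes with YAP for TEAD. Every probe set that the platform table assigned to 1 of these genes alone was taken, which gave 11 of the 45037 probe sets on the array. There were 2 probe sets for Yap1, 3 for Wwtr1, 2 for Tead4 and 1 each for Tead1, Tead2, Tead3 and Vgll4. All 7 genes were thus represented, and no probe set named one of them together with another gene. The values were log2 intensities, and none of the 11 probe sets was removed by a filter.

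RNA was measured on 12 arrays in 4 groups of 3. In the first experiment, the E11.5 samples were forebrain with midbrain of TetO-YAP1;Nes-rtTA embryos, which carry a doxycycline-dependent YAP1 transgene with the S127A substitution (YAP overexpression), and of Nes-rtTA embryos, which carry the transactivator without that transgene (YAP control). The Nestin promoter drives the transactivator in neural progenitors, and the dams' food held doxycycline at 200 mg/kg from E7.5; whether the dams of control embryos were fed it is not stated separately. In the second experiment, the E13.5 samples were dorsal telencephalon of Nf2F/F;Emx1-Cre embryos (Nf2 knockout) and of Nf2F/+;Emx1-Cre embryos (Nf2 control), so both groups carried the Cre and the controls kept 1 intact copy of Nf2 in the Cre-expressing cells. Emx1-Cre acts in the telencephalon, and cells of the tissue that do not express it keep Nf2. The background was mixed in all 4 groups.

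When the Hippo kinases LATS1 and LATS2 are active, they phosphorylate YAP and TAZ, which are then held in the cytoplasm or degraded. When the kinases are inactive, both co-activators enter the nucleus, bind TEAD proteins and switch on genes such as Ccn1 and Ccn2. The S127A substitution removes a serine that LATS phosphorylates, and Merlin, the product of Nf2, helps to activate LATS. The first manipulation thus adds a YAP1 transgene whose product lacks that serine, and the second removes a gene that acts upstream of LATS. In the embryonic brain YAP and TEAD proteins are known from dividing neural progenitors.

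The array medians of the log2 values ran from 5.03 to 5.10 at E11.5 and from 4.30 to 4.42 at E13.5, so the 2 experiments were on separate scales and their levels were not compared. The lowest correlation between arrays of a group was 0.993. Separate embryos are not stated as the source of the numbered arrays, so each p-value is set against a spread between samples that may be partly technical, and the number of arrays limits the precision. The targeted gene Nf2 read 8.06, 8.27 and 8.11 in Nf2 knockouts and 8.41, 8.66 and 8.51 in Nf2 controls, with every knockout array below every control array, a difference of -0.38 that was not called in limma (adjusted p = 0.393). Whether its probes lie in the deleted part of the gene is not known here. Within the E11.5 experiment, the midbrain factor gene En2 averaged 9.41 with YAP overexpression and 9.45 in YAP controls. The forebrain factor gene Lhx2 averaged 11.09 with YAP overexpression and 11.78 in YAP controls. All these means lay above the upper quartile of those arrays (7.80 to 7.85). The forebrain gene Emx1 was dim, at 4.89 with YAP overexpression and 5.47 in YAP controls. So were the midbrain genes En1 (4.16 with YAP overexpression, 4.23 in YAP controls) and Pax7 (4.74 and 4.94). Otx2, listed for both midbrain and choroid plexus, was bright (11.54 and 11.47). Within the E13.5 experiment, Lhx2 averaged 11.86 in Nf2 knockouts and 11.84 in Nf2 controls, above the upper quartile (7.06 to 7.11), and En2 averaged 3.01 in Nf2 knockouts and 3.04 in Nf2 controls, below the lower quartile of those arrays (3.26 to 3.29). The forebrain genes Emx2 (9.43 in Nf2 knockouts, 9.52 in Nf2 controls) and Emx1 (7.16 and 7.31) also lay above the upper quartile. So did Otx2 (8.37 and 8.36), while Six3 (5.17 and 5.49) did not. Of the choroid plexus genes, Ttr (12.54 and 12.65), Clic6 (9.28 and 9.18), Kcne2 (8.95 and 9.03) and Folr1 (7.39 and 7.37) lay above it. Aqp1 (6.49 and 6.60) and Kl (2.99 and 3.20) lay below it. These arrays measure whole tissue, so fewer cells of a type and less RNA per cell cannot be told apart in any value below.

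TEAD proteins bind the letters GGAATG, and RefSeq promoter windows (250 bases before to 50 after a transcript start, build GRCm38.p6) were searched for them on both strands (CATTCC on the other). The matches do not overlap any other motif searched, since this was the only one. Windows were listed for 5 of the 7 genes, Yap1, Wwtr1, Tead2, Tead3 and Vgll4. The letters were found in at least 1 window of 4 of the 5 genes, all but Tead2, against 14.7% of all 32851 windows and 16.6% of all 27025 genes with a window. By window they were found in 6 of 8. A match is only a description of these letters and not evidence of binding. The window of Wwtr1 is shown because that gene's message was higher with YAP overexpression, as described further on, and shorter stretches of the other 3 genes and of the YAP target genes Ccn1 and Amotl2 are shown for comparison. Wwtr1 spans chr3:57455644-57575910 and Yap1 chr9:7931999-8004638 in that build, and Tead1, which has no window listed, chr7:112679356-112906784. Capitals mark GGAATG or its reverse complement, each sequence is the strand of its gene, 5′ to 3′, and all lie before a listed transcript start.
Wwtr1, chr3:57575911-57576160, minus strand: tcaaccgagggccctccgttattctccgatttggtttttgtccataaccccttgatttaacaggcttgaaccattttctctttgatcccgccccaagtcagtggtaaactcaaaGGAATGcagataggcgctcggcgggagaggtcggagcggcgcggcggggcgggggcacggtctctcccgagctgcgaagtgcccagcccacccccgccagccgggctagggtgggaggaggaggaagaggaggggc
Yap1, chr9:8004720-8004749, minus strand: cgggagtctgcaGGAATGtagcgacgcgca
Tead3, chr17:28350970-28350999, minus strand: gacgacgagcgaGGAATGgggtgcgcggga
Vgll4, chr6:114969268-114969297, minus strand: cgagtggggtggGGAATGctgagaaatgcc
Ccn1, chr3:145650071-145650100, minus strand: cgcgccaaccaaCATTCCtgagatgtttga
Amotl2, chr9:102717727-102717756, plus strand: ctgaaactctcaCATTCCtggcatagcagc

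In Wwtr1 the letters begin 136 bases before the outer transcript start, and the same site lies 170 bases before that of its other window. In Yap1 they begin 141 bases before the start, in Vgll4 82 bases, and in Ccn1 103 bases. A second Tead3 window held them 3 times, beginning 123 and 114 bases before its start and once just after it, and the third Tead3 window did not hold them. Of the other pathway genes listed further on, they were found in 7 of 16 YAP/TEAD target genes with a window (43.8%), 8 of 19 upstream Hippo components (42.1%) and 2 of 10 other regulators (20%).

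The first comparison asked how the messages of YAP, TAZ and their TEAD partners stood when active YAP was supplied in neural progenitors. Tead1 rose by 0.55 on the log2 scale and Wwtr1 by 0.35 on its bright probe set. Yap1 differed by 0.27 on its bright probe set, Tead2 by 0.03, Tead3 by 0.06 and Vgll4 by -0.29, none of which passed the test, and Tead4 was near the bottom of the scale. A probe set was called, here and throughout, at an adjusted p under 0.05 in limma over all 45037 probe sets. Of the 11 probe sets 2 were called, both higher, and none was called lower. Over the whole array 3.78% of the probe sets were called, and 1.48% of all probe sets were called higher (667 higher and 1037 lower). Higher probe sets made up 39.1% of the calls, and 49.2% with each array's median subtracted. These shares include dim probe sets, while both called probe sets of the 11 were bright. On the brightest probe set of each of 17097 genes the called share was 4.98%. The groups did not overlap in 3 of the 11, all higher, against 18.2% of all probe sets in either direction. The median log2 difference of the 11 was 0.11, against -0.01 over all probe sets.

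**Figure D1:**
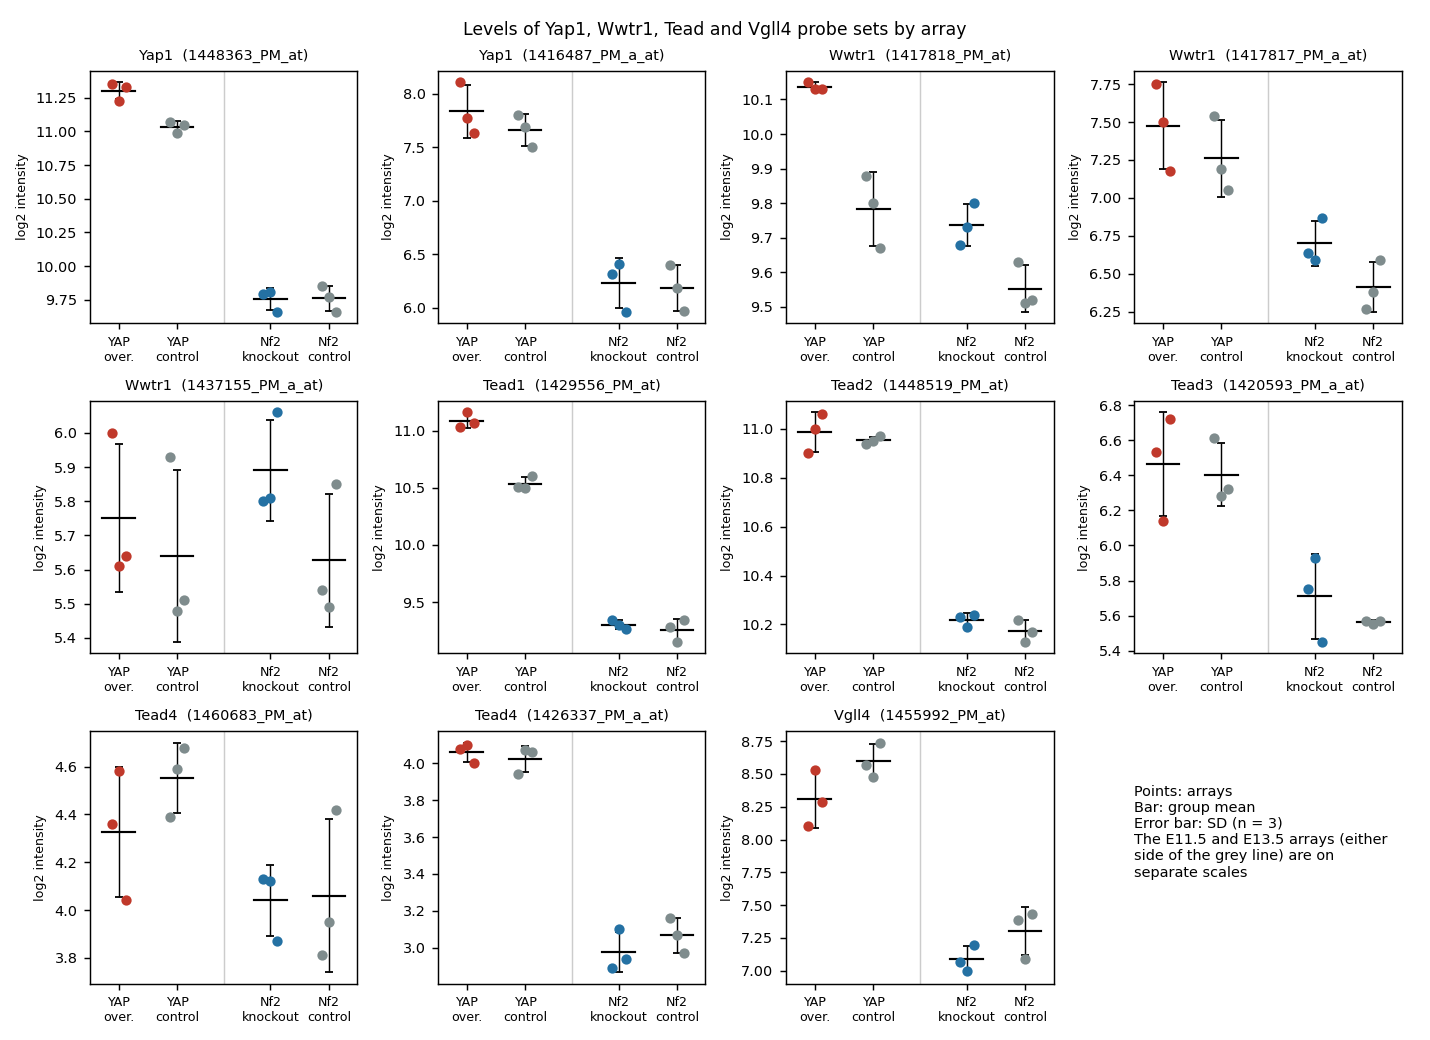
Log2 intensity of the 11 probe sets on each array, 1 panel per probe set, with overexpression or knockout left of its control, bars for group means and error bars for the SD (n = 3). The Tead1 arrays with YAP overexpression sit between 11.03 and 11.16 and their controls between 10.50 and 10.60, while Tead2 arrays of these groups lie between 10.90 and 11.06.

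Tead1 encodes a TEAD factor with wide expression in embryonic tissues. It read 11.03, 11.16 and 11.07 on the 3 arrays with YAP overexpression, against 10.51, 10.50 and 10.60 on the YAP control arrays. Every overexpression array lay above every control array. Tead1 averaged 11.09 ± 0.07 with YAP overexpression and 10.54 ± 0.06 in YAP controls (SD, n = 3 each), a rise of 0.55 on the log2 scale (SE 0.08, 95% interval 0.38 to 0.72), or 1.46-fold, with an adjusted p of 0.00194 in limma. It was called under each of the 15 alternative settings of this comparison, with differences from 0.51 to 0.58.

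The bright probe set of Wwtr1, the TAZ gene (1417818_PM_at), read 10.15, 10.13 and 10.13 with YAP overexpression and 9.88, 9.80 and 9.67 in YAP controls. The overexpression arrays lay close together and above all controls. The group means were 10.14 ± 0.01 with YAP overexpression and 9.78 ± 0.11 in YAP controls (SD, n = 3 each), a rise of 0.35 (SE 0.08, 95% interval 0.18 to 0.52), or 1.28-fold, with an adjusted p of 0.0252 in limma. This call was close to the threshold. Its limma adjusted p was 0.0737 without overexpression replicate 1, 0.0660 without overexpression replicate 3, 0.0578 without control replicate 2 and 0.110 without control replicate 3. It was 0.111 in a fit to the 6 arrays of the experiment alone and 0.0752 with the replicate number as a block.

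The other Wwtr1 probe sets were dimmer and more scattered. Probe set 1417817_PM_a_at read 7.75, 7.5 and 7.18 with YAP overexpression and 7.54, 7.19 and 7.05 in YAP controls, and 1437155_PM_a_at read 6.0, 5.61 and 5.64 with YAP overexpression and 5.93, 5.48 and 5.51 in YAP controls. In both the groups overlapped. Their differences were 0.22 (95% interval -0.12 to 0.56) and 0.11 (-0.21 to 0.43), positive like that of the bright probe set and not called (limma adjusted p 0.578 and 0.812).

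Yap1 itself is the endogenous counterpart of the transgene, and whether its probes match the transgene's message is not known here. Its bright probe set (1448363_PM_at) read 11.35, 11.23 and 11.33 with YAP overexpression and 11.07, 10.99 and 11.05 in YAP controls, so every overexpression array lay above every control array. The difference of 0.27 (SE 0.08, 95% interval 0.095 to 0.44) was not called in limma (adjusted p = 0.0957). It passed with the dim probe sets left out (adjusted p = 0.0261) and with an intensity trend and robust prior (adjusted p = 0.0153). The second Yap1 probe set (1416487_PM_a_at) read 8.11, 7.77 and 7.63 with YAP overexpression and 7.80, 7.69 and 7.5 in YAP controls. Its groups overlapped, and its difference of 0.17 (95% interval -0.16 to 0.51) was not called (limma adjusted p = 0.675).

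Tead2, a TEAD gene known for its expression in the early neural tube, read 10.90, 11 and 11.06 with YAP overexpression and 10.94, 10.95 and 10.97 in YAP controls. The control values lay within the range of the overexpression values. The difference was 0.03 (SE 0.07, limma adjusted p = 0.893), and its 95% interval of -0.12 to 0.19 lay wholly below that of Tead1. Across the alternative settings it ranged from -0.003 to 0.08.

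Tead3 read 6.53, 6.14 and 6.72 with YAP overexpression and 6.61, 6.28 and 6.32 in YAP controls, again with overlap, and the difference of 0.06 had a wide interval, from -0.27 to 0.39 (limma adjusted p = 0.912). Tead4, best known from the trophectoderm and from muscle, was dim. Its probe set 1426337_PM_a_at read 4.08, 4.10 and 4.0 with YAP overexpression and 3.94, 4.07 and 4.06 in YAP controls, below the lower quartile of all probe sets on these arrays (4.33 to 4.36). Probe set 1460683_PM_at read 4.36, 4.58 and 4.04 with YAP overexpression and 4.39, 4.59 and 4.68 in YAP controls. No detection calls were used, so a value this low does not separate a faint message from background. The differences were 0.04 (95% interval -0.15 to 0.22) and -0.23 (-0.58 to 0.13), with limma adjusted p of 0.902 and 0.582.

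Vgll4, the competitor of YAP for TEAD, was lower on 2 of the overexpression arrays. It read 8.10, 8.53 and 8.29 with YAP overexpression and 8.57, 8.48 and 8.74 in YAP controls, so overexpression replicate 2 fell among the controls. The difference of -0.29 (SE 0.125, 95% interval -0.56 to -0.02) had an unadjusted limma p of 0.0372 and was not called (adjusted p = 0.277).

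**Figure D2:**
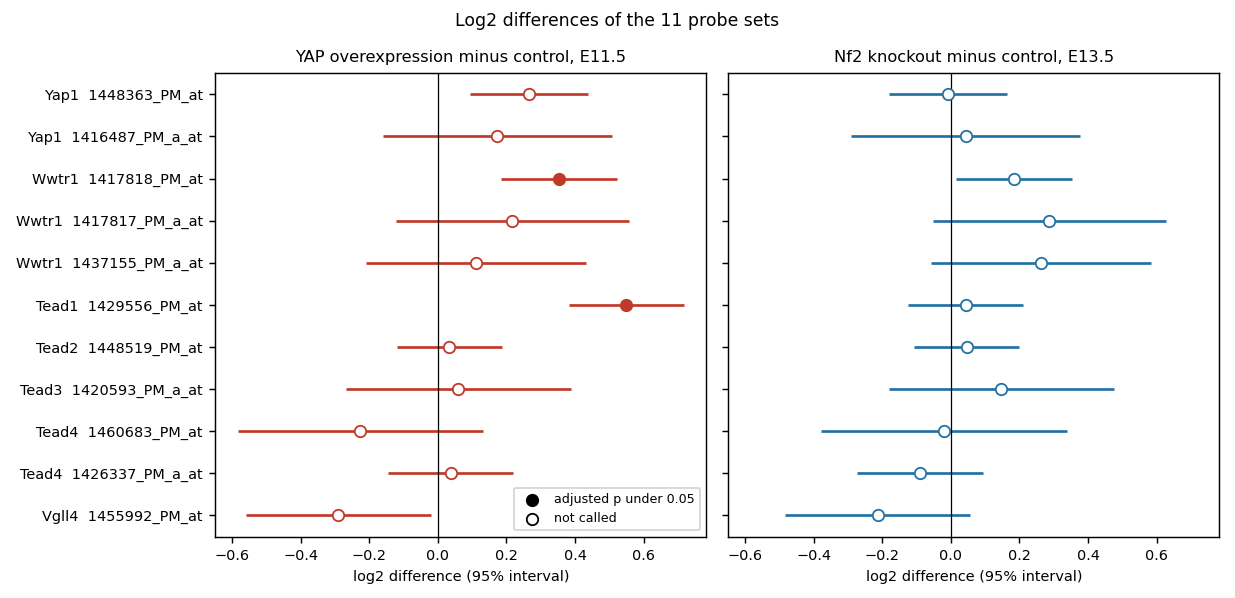
Log2 difference of the 11 probe sets with its 95% interval from limma, for YAP overexpression minus control at E11.5 (left) and Nf2 knockout minus control at E13.5 (right). Filled points are called at an adjusted p under 0.05, which holds for Tead1 (0.55) and the bright Wwtr1 probe set (0.35) at E11.5 and for no probe set at E13.5.

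The second comparison asked how the same messages stood when Nf2 was lost in the dorsal telencephalon. No probe set of the 7 genes was called, and the lowest adjusted p was 0.936. The 3 Wwtr1 probe sets differed by 0.18, 0.29 and 0.26, and Tead1 and Yap1 differed by under 0.05 on the log2 scale. Over the whole array 0.133% of the probe sets were called (51 higher and 9 lower). The bright Wwtr1 probe set was the 1 of the 11 with an unadjusted p under 0.05, against 5.25% of all probe sets. The groups did not overlap in that probe set alone, against 10.8% of all probe sets. The median difference of the 11 was 0.04, against 0.00 over all probe sets.

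Wwtr1 on its bright probe set read 9.68, 9.73 and 9.80 in Nf2 knockouts and 9.63, 9.51 and 9.52 in Nf2 controls. The lowest knockout array was 0.05 above the highest control array. The difference was 0.18 (SE 0.08, 95% interval 0.01 to 0.35), or 1.14-fold, with an unadjusted p of 0.0357 and an adjusted p of 0.936 in limma. Probe set 1417817_PM_a_at read 6.64, 6.59 and 6.87 in Nf2 knockouts and 6.27, 6.38 and 6.59 in Nf2 controls, a difference of 0.29 (95% interval -0.05 to 0.63). Probe set 1437155_PM_a_at read 5.80, 5.81 and 6.06 in Nf2 knockouts and 5.54, 5.49 and 5.85 in Nf2 controls, a difference of 0.26 (-0.06 to 0.58). The groups touched at 1 value in the first of these and overlapped in the second.

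Whether same-numbered arrays of the Nf2 experiment belong together is not stated, and the deviations of arrays from their group means could not decide it. Within these numbers each of the 3 Wwtr1 probe sets was higher in the knockout in 3 of 3 cases, by 0.05, 0.22 and 0.28 on the bright one, by 0.37, 0.21 and 0.28 on 1417817_PM_a_at and by 0.26, 0.32 and 0.21 on 1437155_PM_a_at. With the replicate number as a block, limma's unadjusted p was 0.0621, 0.00691 and 0.00774 for these probe sets and the adjusted p was 0.891, 0.632 and 0.648, so none was called in that fit either. The 3 probe sets read the same message on the same arrays and are not independent of each other.

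**Figure D3:**
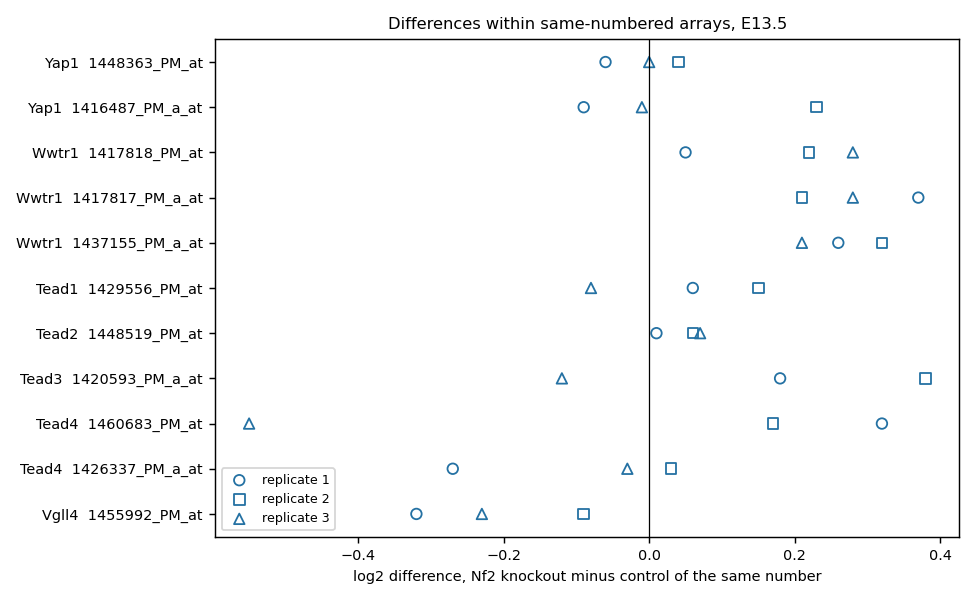
Log2 difference of each of the 11 probe sets between the Nf2 knockout and Nf2 control arrays of the same replicate number at E13.5, 1 symbol per number. All 3 symbols lie above 0 for the 3 Wwtr1 probe sets (0.05 to 0.37) and for Tead2 (0.01 to 0.07), and below 0 for Vgll4 (-0.32 to -0.09).

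Yap1 read 9.79, 9.81 and 9.66 in Nf2 knockouts and 9.85, 9.77 and 9.66 in Nf2 controls on its bright probe set. The 2 groups covered nearly the same range, and the 95% interval of the difference ran from -0.18 to 0.16. The second Yap1 probe set differed by 0.04 (-0.29 to 0.38). Tead1 read 9.34, 9.30 and 9.26 in Nf2 knockouts and 9.28, 9.15 and 9.34 in Nf2 controls, a difference of 0.04 (SE 0.08, 95% interval -0.12 to 0.21), or 1.03-fold. This interval lay wholly below that of Tead1 under YAP overexpression.

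Tead2 read 10.23, 10.19 and 10.24 in Nf2 knockouts and 10.22, 10.13 and 10.17 in Nf2 controls, a difference of 0.05 (95% interval -0.11 to 0.20). Tead3 read 5.75, 5.93 and 5.45 in Nf2 knockouts and 5.57, 5.55 and 5.57 in Nf2 controls, with the knockout arrays on both sides of the tightly grouped controls (0.15, interval -0.18 to 0.48). The Tead4 probe sets differed by -0.02 (-0.38 to 0.34) and -0.09 (-0.27 to 0.09), and 1426337_PM_a_at read from 2.89 to 3.10 in knockouts and from 2.97 to 3.16 in controls, below the lower quartile of those arrays. Vgll4 read 7.07, 7.0 and 7.20 in Nf2 knockouts and 7.39, 7.09 and 7.43 in Nf2 controls, lower in 3 of 3 same-numbered cases (-0.32, -0.09 and -0.23). Its groups overlapped, and the difference of -0.21 (95% interval -0.48 to 0.06) was not called in limma (adjusted p = 0.996, and 0.925 with the replicate block).

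Whether a message moved differently in the 2 experiments was tested as the difference of the 2 effects in the same fit. Age, tissue and manipulation differ together between the experiments and cannot be told apart. Of all probe sets 0.120% were called in this test, and none of the 11 was. For Tead1 the difference of the effects was 0.51 (SE 0.11, 95% interval 0.27 to 0.74), with an unadjusted limma p of 0.000506 and an adjusted p of 0.130. It was called with the dim probe sets left out (adjusted p = 0.0433) and with an intensity trend and robust prior (adjusted p = 0.0141). For the bright Yap1 probe set it was 0.27 (95% interval 0.03 to 0.52, limma adjusted p = 0.536), for the bright Wwtr1 probe set 0.17 (-0.07 to 0.41, adjusted p = 0.75) and for Vgll4 -0.08 (-0.46 to 0.30, adjusted p = 0.950).

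The other genes of the pathway were followed on the brightest probe set of each gene. Of such probe sets over all 17097 genes, 4.98% were called with YAP overexpression and 0.211% with Nf2 loss, and their median log2 difference was -0.01 and 0.00. Of 21 measured YAP/TEAD target genes, 6 rose with YAP overexpression, none fell and 15 were not called, with a list median of 0.00. Among the 6 were the matrix-associated Ccn2 (2.50) and Ccn1 (1.93), the phosphatase gene Ptpn14 (1.66) and the kinase gene Lats2 (0.97). The others were the angiomotin family gene Amotl2 (0.73) and the exchange factor gene Arhgef17 (0.52). Only 4 target genes were called with the 6 arrays of that experiment alone, and 4 to 6 with 1 array left out. With Nf2 loss 3 of the 21 rose, Ccn2 (2.03), Ccn1 (1.02) and Amotl2 (0.73), none fell and 18 were not called, with a list median of 0.04. Limma's adjusted p of these calls ran up to 0.0472, that of Arhgef17, with YAP overexpression and up to 0.00492, that of Amotl2, with Nf2 loss. These changes were larger than that of any of the 11 probe sets except that Arhgef17's log2 difference was below that of Tead1.

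Of 19 measured upstream Hippo components, which share Lats2, Amotl2 and Ptpn14 with the target list, 9 rose with YAP overexpression, none fell and 10 were not called, with a list median of 0.19. Besides those 3 they included the LIM protein genes Ajuba (1.86) and Wtip (0.84), whose products bind LATS. The others were the scaffold genes Wwc2 (1.02) and Wwc1 (0.84), Rassf1 (0.61) and Amot (0.50). Limma's adjusted p of the 9 calls ran up to 0.0455, that of Amot. With the 6 arrays of that experiment alone 6 components were called, and 6 to 8 with 1 array left out. With Nf2 loss 3 rose, Ajuba (0.92), Amotl2 (0.73) and Wwc2 (0.70), none fell and 16 were not called, with a list median of 0.13. Ajuba's adjusted p was 0.0396 and Wwc2's 0.0179 in limma. With the replicate number as a block 2 of the 3 were called, Ajuba (adjusted p = 0.0202) and Amotl2 (0.0443), and Wwc2 was not (0.0706). Only 1 component was called with the 6 arrays of that experiment alone, or without knockout replicate 1, knockout replicate 2, control replicate 2 or control replicate 3. Nf2 itself differed by -0.05 with YAP overexpression (limma adjusted p = 0.879).

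Other proteins that act directly on YAP, TAZ or TEAD formed a list of 14 genes: the vestigial-like genes Vgll1, Vgll2 and Vgll3, the Ywha and Sfn adaptor genes whose products hold phosphorylated YAP in the cytoplasm, the degradation genes Btrc, Csnk1d and Csnk1e, and Wbp2. None was called in either comparison. With YAP overexpression 6 of them had an unadjusted limma p under 0.05, against 18.6% of the brightest probe sets of all genes, and with Nf2 loss 0 of them, against 5.81%, and the list median was -0.09 and -0.03. With YAP overexpression 10 of the 14 genes were lower and 3 higher. The widest differences were those of Btrc (-0.49, limma adjusted p = 0.121), an F-box protein gene, and Vgll2 (0.48, adjusted p = 0.254). Both were named after their values were seen. Vgll2 was dim, at 5.43, 5.49 and 4.67 with YAP overexpression and 4.61, 4.65 and 4.89 in YAP controls, so its groups overlapped.

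**Figure D4:**
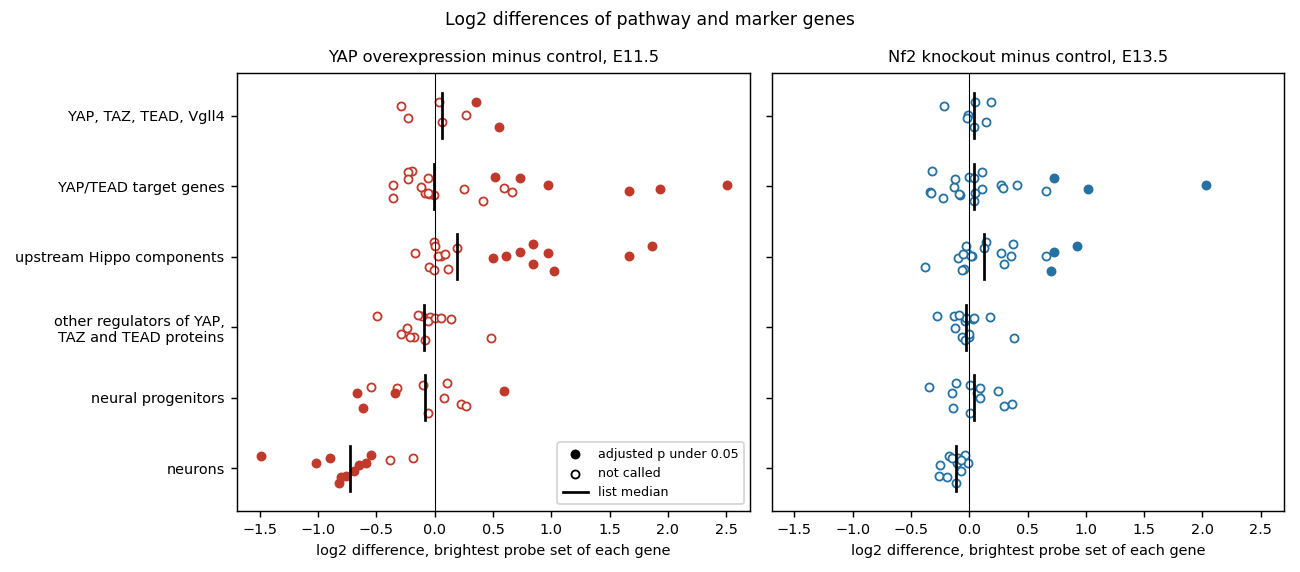
Log2 differences of the brightest probe set of each gene in 6 lists, for YAP overexpression minus control (left) and Nf2 knockout minus control (right), with filled points for calls at an adjusted p under 0.05 and black bars for list medians. Tead1 and Wwtr1 are the filled points of the top list at E11.5, and target genes reach 2.50 there and 2.03 at E13.5.

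Markers of cell types moved with the rise of Tead1 and Wwtr1 under YAP overexpression. Of 12 measured neuron genes 10 fell and 2 passed in neither direction (median -0.73), and the mean of this list over its genes ran from 8.65 to 9.19 on the overexpression arrays and from 9.51 to 9.79 on the control arrays. Of 12 neural progenitor genes Hes1, a Notch effector, rose (0.60), Fabp7 (-0.66), Sox9 (-0.61) and Pax6 (-0.34) fell and 8 were not called, with list means from 9.40 to 9.60 with overexpression and from 9.53 to 9.65 in controls. No gene of mesenchyme and pericytes (10 genes), endothelium (9), microglia (7), erythroid cells (5) or the midbrain list (4) was called. Of their genes 3, 0, 0, 2 and 0 had an unadjusted limma p under 0.05, against the 18.6% of all genes given above. The mesenchymal list, from tissue in which YAP and TAZ are also expressed, ran from 7.46 to 7.74 with overexpression and from 7.49 to 8.01 in controls. The endothelial list ran from 7.11 to 7.28 with overexpression and from 7.10 to 7.18 in controls, the microglial list from 5.62 to 5.93 with overexpression and from 5.77 to 5.93 in controls, and the erythroid list from 10.75 to 11.35 with overexpression and from 11.05 to 11.28 in controls. Krt19 (0.84), 1 of 8 surface ectoderm genes, and Folr1 (1.5), 1 of 7 choroid plexus genes, rose, and of 4 measured forebrain genes Lhx2 (-0.69), Emx2 (-0.68) and Emx1 (-0.58) fell. The part of these shifts in the Tead1 and Wwtr1 values was not tested.

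With Nf2 loss no marker gene of these lists was called in limma. The 9 endothelial genes all had a lower group mean in Nf2 knockouts (median -0.31). Of these genes 4 had an unadjusted limma p under 0.05, against 5.81% of all genes. Their list means ran from 5.72 to 6.25 in Nf2 knockouts and from 6.24 to 6.36 in Nf2 controls. The highest knockout array thus lay within the control range. The 7 microglial genes all had a higher group mean (median 0.35), 3 with an unadjusted limma p under 0.05. Their list means, 5.49 to 5.63 in Nf2 knockouts and 5.21 to 5.29 in Nf2 controls, did not overlap. The erythroid list means, 7.93 to 8.03 in Nf2 knockouts and 8.19 to 8.44 in Nf2 controls, did not overlap either. Of the 5 erythroid genes 4 were lower (median -0.24), and 2 had an unadjusted limma p under 0.05. Among them Alas2, an enzyme gene of haem synthesis, differed by -0.79 (unadjusted limma p 0.000267, adjusted p 0.137) and the embryonic globin gene Hba-x by -0.47 (unadjusted p 0.000723, adjusted p 0.226), the lowest unadjusted p-values of the marker genes in this comparison. The mesenchymal list ran from 6.22 to 6.46 in Nf2 knockouts and from 6.44 to 6.58 in Nf2 controls. The choroid plexus list ran from 7.90 to 8.17 in Nf2 knockouts and from 8.03 to 8.07 in Nf2 controls. The 12 neuron genes were all lower, and their list ran from 8.74 to 8.89 in Nf2 knockouts and from 8.86 to 9.0 in Nf2 controls. The progenitor list ran from 8.70 to 8.79 in Nf2 knockouts and from 8.70 to 8.76 in Nf2 controls. Of its 12 genes 8 were higher and 4 lower, and 3 had an unadjusted limma p under 0.05, all of them higher. The part of these shifts in the Wwtr1 and Vgll4 values was not tested.

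The genes whose pattern over the 12 arrays was most like that of Tead1 and of the bright Wwtr1 probe set were named by Pearson's r, after each experiment's mean was subtracted from its arrays, among 8506 genes with a mean of at least 6. The groups differ within each experiment, so r is a description of likeness only. The genes were picked for that likeness on these same arrays, so their calls and differences follow in part from the choice and are no separate result. For Tead1 they were Ankrd28 (r = 0.959), Mtap, an enzyme gene of methionine salvage (r = 0.950), and Rab15, a small GTPase gene (r = 0.948). Mtap rose by 0.53 with YAP overexpression and differed by 0.01 with Nf2 loss, Rab15 by 0.97 and 0.07 and Ankrd28 by 0.39 and 0.10, each called with YAP overexpression (limma adjusted p from 7.8e-05 to 0.0152). The difference of the effects was called for Rab15 (adjusted p = 0.0124) and not for Mtap (0.0993) or Ankrd28 (0.495). For Wwtr1 they were Bmp6, a secreted signal gene (r = 0.976), the glycolytic enzyme gene Tpi1 (r = 0.957) and the adenosine kinase gene Adk (r = 0.952). Bmp6 rose by 1.34 with YAP overexpression and was 0.72 higher in Nf2 knockouts, where it was not called (limma adjusted p = 0.177), and Tpi1 and Adk rose by 0.44 and 0.47 with YAP overexpression and were 0.20 and 0.25 higher in Nf2 knockouts without a call.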

How the data were processed

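The authors deposited log2 intensities with 2 decimals for each probe set, from biotinylated cRNA made with 100 ng of total RNA. Per the submitters' processing notes RMA, Affymetrix Expression Console 1.1 and Partek 6.5 were used, with no role given to each; scanner files were not used here. Genes were named from the platform table, with symbols updated through Entrez IDs to RefSeq symbols, which gave 28898 probe sets with a single gene. All 45037 probe sets of the 12 arrays were fitted by limma 3.58.1, with 1 mean for each of the 4 groups, in R 4.3.3 (8 residual and 4.62 prior degrees of freedom), with Benjamini-Hochberg adjustment of two-sided p-values across the whole table. Intervals are 95% intervals of that fit. List genes were read on whichever of their probe sets was brightest on average, and the genes named were all probe sets of the 7 genes, Nf2, each called gene of a pathway list, and the 3 genes most alike in pattern to Tead1 and to Wwtr1. Marker list genes were named where called with YAP overexpression (for neurons as counts only). En2, Lhx2, Emx1, Emx2, Six3 and the other measured midbrain genes En1, Pax7 and Otx2 were named to check the dissections. The choroid plexus genes were named at E13.5 for the same purpose. Btrc, Vgll2, Alas2 and Hba-x were named after their values were seen. The fit was tested on simulated data. Deviations from group means of same-numbered arrays correlated by 0.296, 0.205 and 0.268 in the Nf2 experiment. Arrays of unlike number correlated by -0.268 to -0.032 in that experiment, all negative. In the YAP experiment same-numbered arrays correlated by 0.117, -0.142 and -0.147. Matching overexpression replicates 1, 2 and 3 to control replicates 1, 3 and 2 gave 0.117, 0.128 and 0.26 there. Positive values thus also arose without equal numbers in the YAP experiment. Deviations within a group cancel, so positive correlations for some matches go with negative ones for others. These correlations cannot decide whether numbers pair arrays in either experiment. Lists, members and rules were chosen with earlier results of these data known. Figures were drawn with matplotlib 3.10.9. The alternatives tried are given in the closing section.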

Additional observations from a re-analysis of the deposited data

How the results depend on the processing

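The number of called probe sets with YAP overexpression, 1704, was 1078 with 1 probe set per gene, 648 with only the 6 arrays of the experiment, and 784 (without control replicate 3) to 2014 with 1 array left out; it was also lower by over 1.5 times without overexpression replicate 1, overexpression replicate 3 or control replicate 1. That with Nf2 loss, 60, was 21 to 32 with any 1 of its 6 arrays left out and 44 with the replicate block. For the difference of the effects, 54 were called, against 25 with the replicate block, 98 without dim probe sets, 84 with array weights, 201 with an intensity trend and robust prior, and 29 to 208 with 1 array left out (208 without overexpression replicate 2; 29 to 35 without 1 of the Nf2 arrays, and 34 without YAP control replicate 1 or 3). The causes of these shifts were not tested. Of the probe sets of the 7 genes, 2 were called higher with YAP overexpression, and 1 with the replicate block (Tead1; Wwtr1 had an adjusted p of 0.0752), 1 with only 6 arrays and 1 to 2 with 1 array left out (1 without overexpression replicate 1 or 3, or control replicate 2 or 3). Whether numbers pair arrays in that experiment is not known here. In the Nf2 experiment the replicate block added or removed no call among the 11 probe sets. Of the other regulators 0 were called with YAP overexpression, and 1 without dim probe sets, 1 with an intensity trend and robust prior, 1 over all probe sets of these genes, and 0 to 1 with 1 array left out (1 without overexpression replicate 2, overexpression replicate 3 or control replicate 2). Of the Hippo components 3 were called with Nf2 loss, 2 with the replicate block, 1 with only 6 arrays and 1 to 2 with 1 array left out. Of the single values under alternatives, 333 kept direction and side of the threshold, 6 lost the call (the bright Wwtr1 probe set with YAP overexpression), 4 gained one (Yap1, and the Tead1 difference of effects) and 13 turned sign. The signs that turned were of small, uncalled differences, mostly with 1 array left out: with Nf2 loss Yap1 at -0.057 to 0.04 (bright) and -0.063 to 0.18, Tead1 at -0.01 to 0.085 and Tead4 (1460683_PM_at) at -0.145 to 0.16, and at 0.016 with array weights; with YAP overexpression Wwtr1 (1437155_PM_a_at) at -0.015 to 0.255, Tead2 at -0.003 to 0.077, Tead3 at -0.068 to 0.222 and Tead4 (1426337_PM_a_at) at -0.005 to 0.067. How far dim probe sets such as those of Tead4 stood above background is not known here.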
